A study of Mus musculus with 12 samples.

Results

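Protein folding in the endoplasmic reticulum (ER) was followed through 35 genes in the oviduct and uterus of early pregnant mice: 11 chaperones and co-chaperones, 4 thiol oxidoreductases, 3 stress sensors with the transcription factor gene Xbp1, 7 genes of ER-associated degradation, and 9 genes of the PERK arm and the integrated stress response. The genes were listed by name, with earlier results of these data known and no cutoff on their values. All 35 of 35 were measured, among 19938 genes on the array.

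Mice were injected under the skin once a day from day 0.5 to day 2.5 after mating and dissected on day 3.5. Estradiol (E2, the main ovarian estrogen) was given at 10 µg/kg, about 250 ng per mouse and day, in 100 µl of sesame oil, and the control mice received the oil alone (0 µg/kg). RNA came from flushed, frozen oviducts and uterine horns, with 12 arrays in 4 groups of 3: uterus and oviduct of oil mice, and uterus and oviduct of E2 mice. Every group is thus pregnant and injected, and each array holds whole tissue with epithelium, stroma, muscle, vessels and blood-borne cells together. Strain and age are not given in the labels. The labels call the replicates biological but do not say whether an oviduct and a uterus with the same number came from 1 mouse.

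Proteins that are secreted or sit in membranes fold inside the ER. Chaperones such as BiP (Hspa5) and GRP94 (Hsp90b1) hold them, calreticulin and calnexin read their sugar chains, and protein disulfide isomerases join their cysteines. When unfolded protein collects, the sensors IRE1α (Ern1), ATF6 and PERK (Eif2ak3) start the unfolded protein response: IRE1α splices Xbp1 mRNA, ATF6 is cut into a transcription factor, and PERK slows translation while favouring that of ATF4. XBP1 and ATF6 raise chaperone and degradation genes, and ATF4, which several other stress kinases also engage, raises genes of amino acid synthesis and Ddit3 (CHOP). The pathway is active in secretory cells such as the epithelia of the reproductive tract. The arrays measured mRNA, and neither the splicing of Xbp1 nor any protein was measured.

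The promoters of these genes carry known response elements, which were searched in RefSeq windows of 300 bases on GRCm38.p6, from 250 bases before to 50 bases after each start site, on both strands. Windows were present for 31 of the 35 genes and for 27025 genes in all, with none for Atf6, Manf, Derl1 and Hyou1. The following stretches are from Hspa5 and, in each role group that had one, the gene with the largest change in the uterus that passed the test. Each is written 5′ to 3′ on the strand of its gene. Capitals mark the motifs shown for that gene, not every match. In Pdia6 a further CCACG, on the other strand and so read CGTGG, stands in lower case.
Hspa5, chr2:34771925-34772051, plus strand: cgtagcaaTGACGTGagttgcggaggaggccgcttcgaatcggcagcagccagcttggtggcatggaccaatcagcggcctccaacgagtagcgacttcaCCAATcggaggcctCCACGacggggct
Pdia6, chr12:17266483-17266517, plus strand: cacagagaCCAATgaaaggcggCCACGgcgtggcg
Sdf2l1, chr16:17132388-17132598, minus strand: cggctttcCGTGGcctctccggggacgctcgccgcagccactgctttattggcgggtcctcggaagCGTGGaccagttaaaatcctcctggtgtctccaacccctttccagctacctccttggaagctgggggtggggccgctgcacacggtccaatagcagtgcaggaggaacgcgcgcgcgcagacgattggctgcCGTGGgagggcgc
Ern1, chr11:106487948-106487968, minus strand: cactcttaCCACGcccacaaa
Asns, chr6:7693217-7693240, minus strand: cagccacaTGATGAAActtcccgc

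In Hspa5 and Pdia6 the capitals CCAAT and CCACG, with 9 bases between them, form the ER stress response element, read by ATF6 and XBP1 together with NF-Y. This exact element was found in 9 of the 31 genes with a window (29.0%) and in 37 of all 27025 genes (0.137%). The 9 genes are Hspa5, Hsp90b1, Calr, Canx, Dnajc3, Creld2, Pdia6, Derl3 and Syvn1. Hsp90b1 had 2 copies. The capitals CGTGG in Sdf2l1 are CCACG on the other strand. CCACG alone, which is part of the longer elements, was in 26 of 31 windows (83.9%) against 35.5% of all. A second element, ATTGG and CCACG with 1 base between them, was in Dnajb11 and Herpud1 (6.45%, against 0.0444% of all). TGACGTG, the core of ATF6 and XBP1 sites, was in Hspa5 (3.23%, against 2.22%). The core of composite ATF4 sites, TGATGNAA, was in Asns, Herpud1, Trib3 and Chac1 (12.9%, against 4.51%). These matches describe letters, not bound sites.

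The 12 arrays were alike in scale, with linear medians from 89.5 to 92.9, and arrays of 1 group correlated at 0.984 to 0.996 across genes, which are not independent replicates. The number of arrays limits the precision. Of the Y-linked genes, which female tissue lacks, Sry was the brightest, at up to 7.50 on the log2 scale, and the next reached 5.36. The Sry level is used below as a mark of dim signal, and 10258 genes stayed under it on every array. Of the 35 genes, 24 were above it on every array, 6 on some, and 5 on none. Oil replicate 3 stood apart in both tissues: 177 uterine and 302 oviductal genes were over 1 log2 unit away from what the 2 remaining oil arrays averaged, against 8 to 62 genes on the other 10 arrays. On that array 30 of the 35 genes were above both other oil arrays in the uterus, as were 8301 of all 19938 genes, and 23 of 35 in the oviduct, as were 6965 of all. The median displacement of the 35 genes from the mean of those arrays was 0.20 in each tissue, against 0.02 and -0.01 for all genes. The summed linear intensity of 9 corpus luteum markers ran from 1052 to 5965 over the oil oviduct arrays and was highest on oil oviduct replicate 3. Smooth muscle markers were above both other oil uterus arrays in 12 of 12 cases on oil uterus replicate 3 (median 0.50). Other lists moved as well. On oil oviduct replicate 3, 14 of 15 ciliated markers were above both other oil oviduct arrays (median 0.83). There 9 of 10 macrophage markers lay below the mean of those arrays (median -0.61). On oil uterus replicate 3, 9 of 11 proliferation markers lay below that mean in the uterus (median -0.71). Part of the results that rest on these arrays are therefore given without them too. The uterine changes of Creld2, Hyou1, Dnajc3, Syvn1 and Herpud1, among others, are given with them only. For these 5 genes oil uterus replicate 3 lay 0.38 to 0.54 above the mean of the remaining oil uterus arrays. Ciliated cell markers, which define the oviduct, were higher in the oil oviduct than in the oil uterus for 14 of 15 genes.

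The effect of E2 on the folding genes of the uterus was read from the difference between E2 and oil uterus arrays, fitted with limma across all 19938 genes with Benjamini-Hochberg adjustment and called at an adjusted p under 0.05. Of the 35 genes 15 were lower in the E2 uterus, where 14.3% of all genes were called lower, and 2 were higher, where 12.4% of all genes were. The median change of the 35 genes was -0.26 on the log2 scale, against -0.000697 for all genes. Chaperones fell for 8 of 11 genes (median -0.68) and oxidoreductases for 4 of 4 (median -0.46). The PERK and integrated stress response group gave 3 lower and 1 higher of 9 (median -0.05), the sensors with Xbp1 gave 1 higher of 4 (median -0.09), and none of the 7 degradation genes was called (median -0.02). The arrays of the 2 uterine groups did not overlap for 22 of the 35 genes, where 40.5% of all genes did not.

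**Figure D1:**
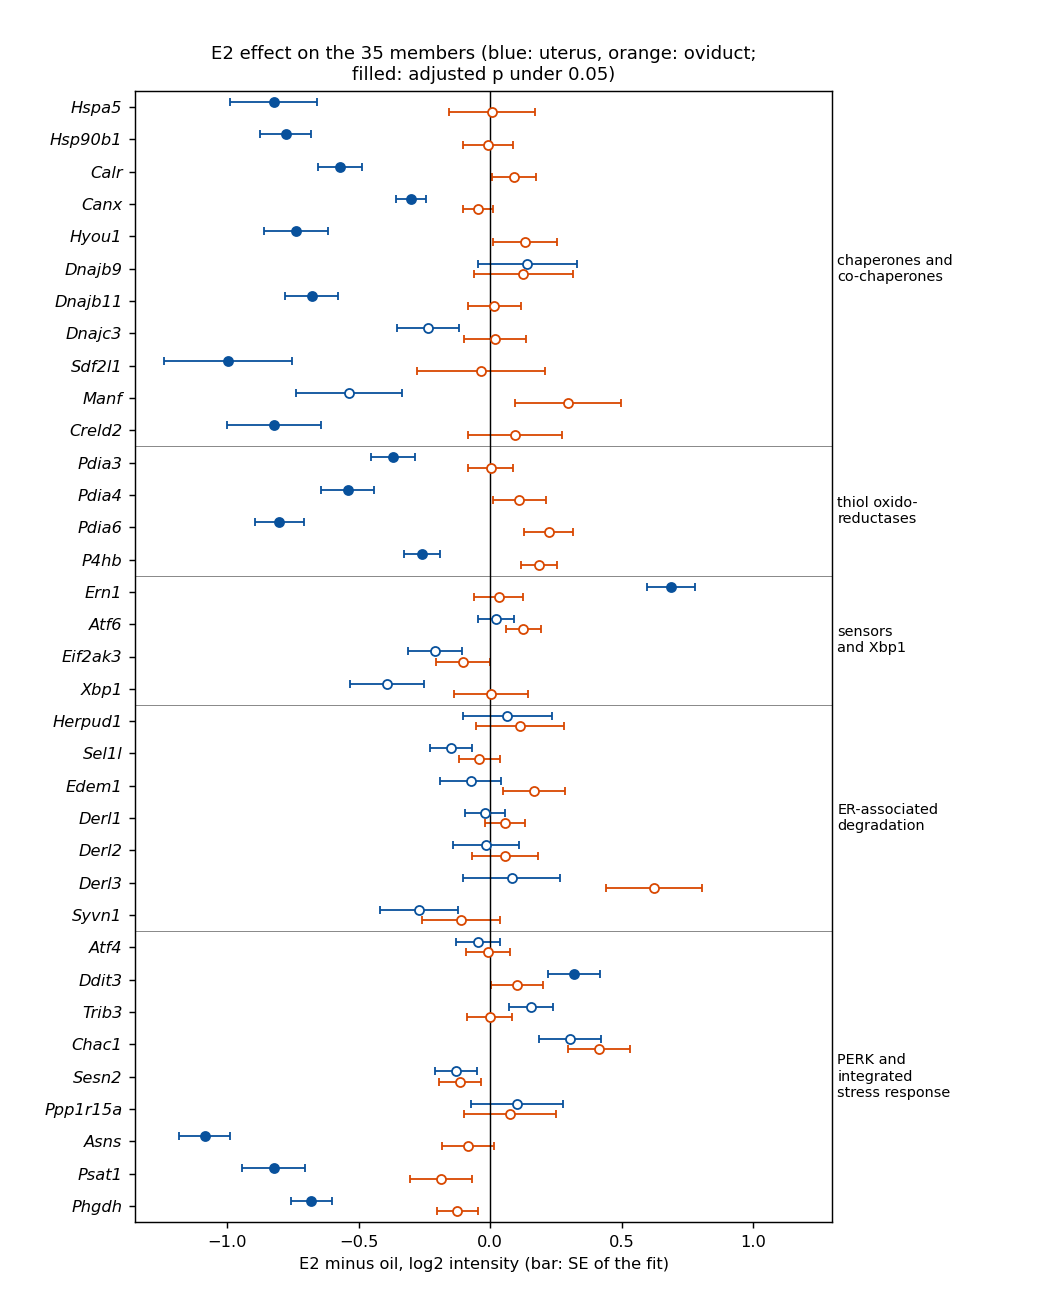
The E2 effect (E2 minus oil, log2 intensity, horizontal axis) is shown with the SE of the fit for each of the 35 genes, grouped by role, in the uterus (blue) and the oviduct (orange), filled where the adjusted p was under 0.05. The chaperones and oxidoreductases lie left of 0 in the uterus, apart from Dnajb9 at 0.14, while all oviduct points are open and lie between -0.19 and 0.62.

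BiP, the main Hsp70 chaperone of the ER and the binding partner of all 3 sensors, is made from Hspa5. Its log2 intensity was 10.84, 10.72 and 11.47 on oil uterus replicates 1 to 3, 10.03, 10.18 and 10.35 in the E2 uterus, 11.29, 11.28 and 11.53 in the oil oviduct and 11.30, 11.44 and 11.38 in the E2 oviduct. All 3 E2 uterus arrays were below all 9 others. The uterine difference was -0.82 (SE 0.16, 1.77-fold lower, adjusted p = 0.00294), and -0.59 without both arrays of oil replicate 3 (adjusted p = 0.00108).

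GRP94, the Hsp90 of the ER, folds integrins and Toll-like receptors among its clients and is made from Hsp90b1. Its values were 11.17, 11.15 and 11.22 in the oil uterus, 10.26, 10.42 and 10.51 in the E2 uterus, 11.11, 11.39 and 11.38 in the oil oviduct and 11.15, 11.40 and 11.31 in the E2 oviduct. The 3 oil uterus arrays lay within the range of the oviduct arrays, and the 3 E2 uterus arrays lay below both. The difference was -0.78 (SE 0.10, 1.71-fold lower, adjusted p = 0.000111).

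Sdf2l1 encodes a partner of ER-resident J proteins. It read 7.97, 7.78 and 8.68 in the oil uterus, 7.11, 7.09 and 7.22 in the E2 uterus, 8.33, 8.43 and 9.20 in the oil oviduct and 8.46, 8.63 and 8.77 in the E2 oviduct. Oil replicate 3 was the highest array of its group in both tissues, and the E2 uterus lay under the Sry level. Sdf2l1 had the largest chaperone change: it fell by 1.00 on the log2 scale (SE 0.24, 2.00-fold lower, adjusted p = 0.00929), and by 0.73 without both arrays of oil replicate 3.

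Creld2, whose product has oxidoreductase activity in the ER, read 9.08, 8.96 and 9.56 in the oil uterus and 8.23, 8.38 and 8.51 in the E2 uterus. In the oviduct it read 9.85, 10.12 and 10.35 with oil and 9.91, 10.41 and 10.27 with E2, above every uterine array. The uterine difference was -0.82 (SE 0.18, adjusted p = 0.0048).

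Hyou1 encodes GRP170, a large Hsp70-like protein that exchanges the nucleotide of BiP. Its log2 intensity was 8.76, 8.51 and 9.01 in the oil uterus, 7.90, 8.02 and 8.14 in the E2 uterus, 8.95, 9.09 and 9.21 in the oil oviduct and 9.10, 9.27 and 9.28 in the E2 oviduct. The E2 uterus arrays were the lowest of the 12, with a uterine difference of -0.74 (SE 0.12, adjusted p = 0.00082).

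A further 3 chaperones fell by less. Dnajb11, a J protein that hands clients to BiP, changed by -0.68 (SE 0.10), calreticulin (Calr) by -0.57 (SE 0.08) and calnexin (Canx) by -0.30 (SE 0.06). Among the 3 chaperones that were not called, Manf, a BiP-binding factor that can be secreted, differed by -0.54 (SE 0.20, adjusted p = 0.0725). It passed the test without oil uterus replicate 2 (-0.72, adjusted p = 0.0235). On oil uterus replicate 3 Manf lay 0.78 above the mean of the remaining oil uterus arrays, so its fall is smaller without that array. Manf was under the Sry level on 5 arrays, all uterine. Dnajc3 (p58IPK), an inhibitor of PERK and a BiP co-chaperone, differed by -0.24 (SE 0.12). Dnajb9 (ERdj4), a J protein that keeps IRE1α bound to BiP, differed by 0.14 (SE 0.19) with overlapping arrays, and without both arrays of oil replicate 3 it was higher in the E2 uterus by 0.42 (adjusted p = 0.00148). Its oil uterus values of 8.60, 8.67 and 9.48 show that replicate 3 decided that call, next to 9.03, 9.03 and 9.12 with E2.

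Pdia6, a disulfide isomerase that also binds IRE1α, had the largest oxidoreductase change. It read 9.61, 9.49 and 9.73 in the oil uterus, 8.64, 8.84 and 8.95 in the E2 uterus, 9.54, 9.66 and 9.56 in the oil oviduct and 9.71, 9.87 and 9.85 in the E2 oviduct. The E2 uterus again stood below the other 9 arrays, at -0.80 against the oil uterus (SE 0.09, 1.74-fold lower, adjusted p = 7.03e-05). Pdia4 (ERp72) changed by -0.54 (SE 0.10, adjusted p = 0.0019), and the mean of its 2 probe sets, of which the second had a mean of only 6.29, changed by -0.29 and was not called. Pdia3 (ERp57), the partner of calreticulin and calnexin, changed by -0.37 (SE 0.08). P4hb (PDI), which is also a subunit of collagen prolyl hydroxylase, changed by -0.26 (SE 0.07, adjusted p = 0.0139). Its call ended without E2 uterus replicate 1 (-0.23, adjusted p = 0.0552) and without oil uterus replicate 3 (-0.21, adjusted p = 0.0535).

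**Figure D2:**
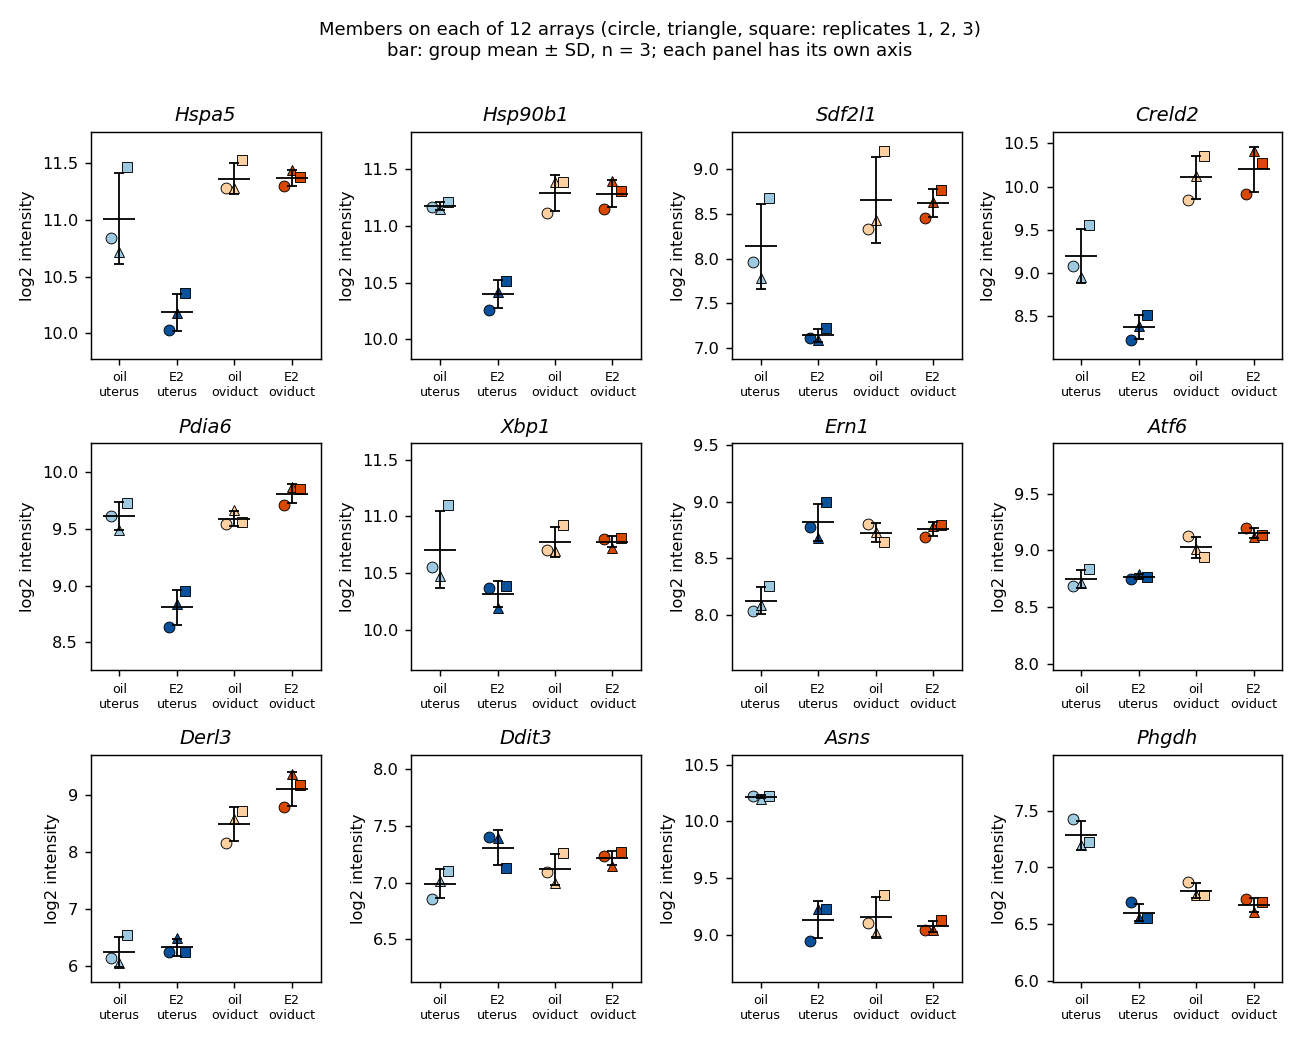
Log2 intensity (vertical axis, scaled separately in each panel) of 12 of the 35 genes on each array, by group (horizontal axis), with replicates 1, 2 and 3 as circle, triangle and square and the group mean ± SD (n = 3) as bars. The E2 uterus arrays are lowest for Hspa5, Hsp90b1, Sdf2l1, Creld2 and Pdia6, the oil uterus is lowest for Ern1 and highest for Asns and Phgdh, and Derl3 separates the tissues.

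Of the 3 sensors and Xbp1, 1 gene was called. Ern1, the kinase and nuclease that splices Xbp1, rose. It read 8.03, 8.09 and 8.26 in the oil uterus, 8.78, 8.68 and 8.99 in the E2 uterus, 8.81, 8.73 and 8.64 in the oil oviduct and 8.69, 8.79 and 8.80 in the E2 oviduct. The 3 oil uterus arrays were the lowest of the 12, E2 uterus replicates 1 and 2 lay within the range of the oviduct arrays, and E2 uterus replicate 3 was the highest of all. The uterine change was 0.69 (SE 0.09, 1.61-fold higher, adjusted p = 0.000193), and it passed the test whichever array was left out.

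Atf6 was at 8.69, 8.72 and 8.84 in the oil uterus and at 8.75, 8.80 and 8.76 in the E2 uterus, where the groups overlapped and differed by 0.02 (SE 0.07). The oviduct was above both, at 9.12, 9.01 and 8.94 with oil and 9.20, 9.12 and 9.14 with E2. PERK (Eif2ak3) read 7.74, 7.71 and 7.94 in the oil uterus, 7.53, 7.52 and 7.70 in the E2 uterus, 7.73, 7.67 and 8.06 in the oil oviduct and 7.73, 7.70 and 7.73 in the E2 oviduct. Its uterine difference of -0.21 (SE 0.10, adjusted p = 0.173) did not pass the test, although the uterine groups did not overlap.

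Xbp1, the factor that IRE1α activates, read 10.56, 10.47 and 11.10 in the oil uterus, 10.37, 10.19 and 10.39 in the E2 uterus, 10.70, 10.70 and 10.92 in the oil oviduct and 10.80, 10.72 and 10.81 in the E2 oviduct. All E2 uterus arrays were below the oil uterus, by -0.39 on average (SE 0.14, adjusted p = 0.0594), short of the threshold. The difference passed without oil uterus replicate 2 (-0.51, adjusted p = 0.0247), and it was -0.20 without both arrays of oil replicate 3 (adjusted p = 0.0885).

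None of the 7 degradation genes was called in the uterus. Herpud1, which scaffolds the degradation complex, differed by 0.06 (SE 0.17), the adaptor Sel1l by -0.15 (SE 0.08), its ubiquitin ligase Syvn1 (HRD1) by -0.27 (SE 0.15) and the mannosidase-like Edem1 by -0.07 (SE 0.12). The derlins, membrane proteins that pass clients back to the cytosol, differed by -0.02 (Derl1, SE 0.08), -0.02 (Derl2, SE 0.13) and 0.08 (Derl3, SE 0.18). Derl3 lay under the Sry level on every uterine array, so its uterine values rest on a dim signal.

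Of the 9 genes of the PERK arm and the integrated stress response, Asns, Psat1 and Phgdh fell, Ddit3 rose and 5 were not called. Asns, which makes asparagine and is a classical ATF4 target, read 10.23, 10.20 and 10.22 in the oil uterus, 8.94, 9.22 and 9.22 in the E2 uterus, 9.11, 9.01 and 9.35 in the oil oviduct and 9.04, 9.04 and 9.13 in the E2 oviduct. The 3 oil uterus arrays stood above the other 9, which overlapped among themselves. The change of -1.09 (SE 0.10, 2.12-fold lower, adjusted p = 1.2e-05) was the largest of the 35 genes in the uterus.

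Psat1 and Phgdh encode enzymes of serine synthesis. Psat1 read 7.96, 8.03 and 7.79 in the oil uterus, 6.83, 7.18 and 7.30 in the E2 uterus, 8.15, 8.20 and 8.39 in the oil oviduct and 8.12, 8.08 and 7.97 in the E2 oviduct, a uterine change of -0.82 (SE 0.12, adjusted p = 0.000327). The E2 uterus arrays were the lowest, under the Sry level. Phgdh read 7.43, 7.19 and 7.22 in the oil uterus, 6.69, 6.55 and 6.56 in the E2 uterus, 6.87, 6.75 and 6.76 in the oil oviduct and 6.72, 6.60 and 6.69 in the E2 oviduct. Here the oil uterus was highest, and the change was -0.68 (SE 0.08, adjusted p = 6.85e-05), with all arrays under the Sry level.

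Atf4 mRNA itself did not pass the test, with log2 intensities of 7.58, 7.41 and 7.74 in the oil uterus, 7.50, 7.52 and 7.58 in the E2 uterus, 7.61, 7.53 and 7.45 in the oil oviduct and 7.56, 7.52 and 7.49 in the E2 oviduct, with overlapping groups and a uterine difference of -0.05 (SE 0.08). Atf4 was under the Sry level on 4 arrays and reached at most 7.74, so its small difference rests on a dim signal. ATF4 is controlled largely through translation, which arrays do not see. Ddit3 (CHOP), a factor tied to cell death under lasting stress, read 6.85, 7.02 and 7.10 in the oil uterus, 7.40, 7.39 and 7.13 in the E2 uterus, 7.09, 6.998 and 7.26 in the oil oviduct and 7.24, 7.15 and 7.27 in the E2 oviduct. All were under the Sry level. Its uterine rise of 0.32 (SE 0.10, adjusted p = 0.0321) lost the call without any one of oil uterus replicates 1 and 2 and E2 uterus replicates 1 and 2, with differences from 0.25 to 0.33 and adjusted p from 0.0628 to 0.125.

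A further 4 targets of this arm were not called in the uterus. The pseudokinase Trib3 differed by 0.16 (SE 0.09), Chac1, which cleaves glutathione, by 0.31 (SE 0.12, adjusted p = 0.0792), Sesn2, an inhibitor of mTORC1, by -0.13 (SE 0.08) and Ppp1r15a (GADD34), which brings the phosphatase to eIF2α, by 0.10 (SE 0.18). Trib3, Chac1 and Sesn2 lay under the Sry level on every array. Chac1 passed the test without both arrays of oil replicate 3 (0.35, adjusted p = 0.0251).

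Without both arrays of oil replicate 3, 15 genes were lower in the E2 uterus and 4 higher, and all 17 calls were kept. The 2 added calls were Dnajb9 and Chac1.

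**Figure D3:**
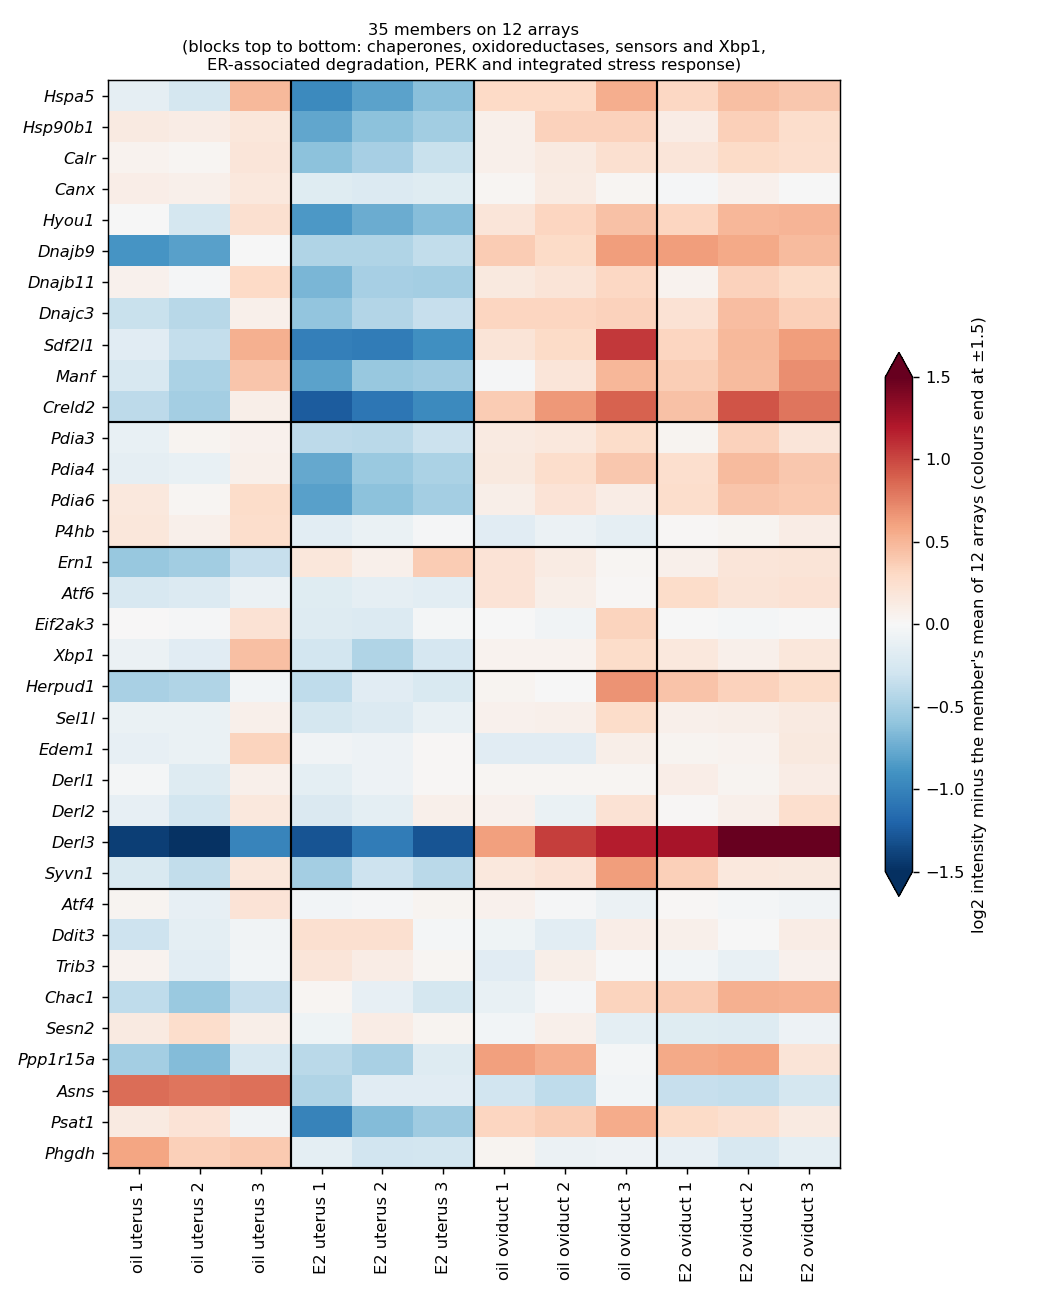
Each cell shows a gene's log2 intensity on 1 array minus its mean over the 12 arrays (red above, blue below, colours ending at ±1.5), with genes in rows by role and arrays in columns by group. The chaperone and oxidoreductase rows lie below their 12-array means in the 3 E2 uterus columns, with P4hb almost at its mean on E2 uterus replicate 3. Blue is not by itself a fall with E2: Dnajb9 is bluer on oil uterus replicates 1 and 2 than in the E2 uterus. Oil uterus replicate 3 is redder than both other oil uterus columns for 30 of the 35 genes.

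Cell type markers moved in the same uterine contrast. Of 14 epithelial markers 13 rose, and their summed linear intensity went from 5247 to 6026 in the oil uterus to 11354 to 12872 in the E2 uterus. All 11 proliferation markers measured fell, from summed intensities of 4359 to 6963 to 2048 to 2624. Endothelial markers fell for 9 and rose for 2 of 12 genes (7270 to 8282 against 5100 to 5471). Stromal markers fell for 6 of 12 (23317 to 23942 against 21067 to 21693), and macrophage markers rose for 7 of 10 (3768 to 4331 against 6220 to 6968). Smooth muscle markers rose for 3 of 12 (20119 to 27414 against 27628 to 28393). Markers of B cells and of plasma cells, of which plasma cells are rich in ER, gave 1 higher and 1 lower of 10. Their summed intensities were 950 to 1265 against 918 to 1016. Of the 10, 7 were under the Sry level on every array, including Cd79a, Ms4a1 and Mzb1. In whole tissue, fewer cells of a type and less RNA per cell cannot be told apart, and the part of these shifts in the changes of the folding genes was not tested.

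In the oviduct the same dose changed none of the 35 genes at the threshold. No gene was higher, where 0.16% of all genes were called higher, and none was lower, where 0.13% were. By limma's unadjusted p, 4 of 35 genes were under 0.05, close to the 10.5% of all genes. They were P4hb (0.19, adjusted p = 0.349), Pdia6 (0.22, adjusted p = 0.426), Derl3 (0.62, adjusted p = 0.248) and Chac1 (0.41, adjusted p = 0.232), all with higher values in the E2 oviduct. The arrays of the 2 oviduct groups did not overlap for 7 of the 35 genes, where 17.4% of all genes did not. The median difference was 0.03, against -0.006 for all genes, and 23 of 35 differences were above 0, as were 9614 of all 19938. Hspa5 differed by 0.01 (SE 0.16), Hsp90b1 by -0.01 (SE 0.10), Ern1 by 0.03 (SE 0.09) and Asns by -0.08 (SE 0.10), each with overlapping arrays. Without both arrays of oil replicate 3, Chac1 was the 1 gene called in the oviduct (0.55, adjusted p = 0.0459). No epithelial marker was higher and 1 of 14 was lower in the E2 oviduct, and none of 11 proliferation markers was called in either direction.

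Whether E2 acted differently in the 2 tissues was tested by the interaction term, the E2 effect in the oviduct minus that in the uterus. It was positive for 12 of 35 genes, where 5.77% of all genes were called positive, and negative for 1 of 35, where 5.71% were. The 12 were 6 chaperones, 3 oxidoreductases, Asns, Psat1 and Phgdh, and the 1 negative gene was Ern1. Pdia6 had the largest value at 1.02 (SE 0.13, adjusted p = 0.000448), followed by Asns at 1.00 (SE 0.14, adjusted p = 0.000745), Creld2 at 0.92 (SE 0.25, adjusted p = 0.0372) and Hyou1 at 0.87 (SE 0.17, adjusted p = 0.00682). For each of these 4 the uterine effect was negative and the oviduct effect lay between -0.08 and 0.22. Ern1 had -0.66 (SE 0.13, adjusted p = 0.00686), with 0.69 in the uterus and 0.03 in the oviduct. The other positive genes were Hspa5 (0.83), Hsp90b1 (0.77), Dnajb11 (0.69), Calr (0.66), Pdia4 (0.65), Psat1 (0.64), Phgdh (0.56) and P4hb (0.45).

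Of these interaction calls, 3 ended when single arrays were left out. Hspa5 kept values from 0.75 to 0.87 but lost the call (adjusted p from 0.0667 to 0.096) when any one array was left out other than oil uterus replicates 1, 2 and 3, E2 uterus replicate 3 and oil oviduct replicate 3. Creld2 lost it without any one array other than oil uterus replicate 2, E2 uterus replicate 3, oil oviduct replicate 3 and E2 oviduct replicate 1 (0.74 to 0.98, adjusted p from 0.0535 to 0.0905). Psat1 lost it without oil uterus replicates 1 or 2, oil oviduct replicates 1 or 2 or E2 oviduct replicates 1 or 2 (0.58 to 0.63, adjusted p from 0.0627 to 0.0738). Sdf2l1 (0.96, adjusted p = 0.101) and Manf (0.83, adjusted p = 0.0884) were not called, and both passed without both arrays of oil replicate 3 (Sdf2l1 0.97, adjusted p = 0.00156, and Manf 0.71, adjusted p = 0.022).

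The tissues were then compared within each treatment. In oil mice, 11 of 35 genes were higher in the oviduct, where 17.3% of all genes were, and 3 of 35 were lower, where 21.5% of all genes were. In E2 mice, 23 of 35 were higher, where 15.2% of all genes were, and none was lower, where 18.9% were (limma, 24 of 35 at an unadjusted p under 0.05 in either direction, where 42.1% of all genes were). The 2 comparisons use different arrays, and the interaction values above are the test of their difference.

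Derl3 had the largest tissue difference. Its log2 intensity was 6.14, 6.06 and 6.55 in the oil uterus, 6.25, 6.50 and 6.25 in the E2 uterus, 8.16, 8.58 and 8.73 in the oil oviduct and 8.79, 9.37 and 9.18 in the E2 oviduct. The oviduct was above the uterus on every array, by 2.24 in oil mice (SE 0.18, 4.71-fold, adjusted p = 1.92e-06) and by 2.78 in E2 mice (SE 0.18, 6.86-fold, adjusted p = 4.9e-07). Because the uterine arrays were under the Sry level, these folds rest on a dim signal on that side. DERL3 is the derlin known from secretory tissues.

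Dnajb9 was at 9.86, 9.77 and 10.12 in the oil oviduct and 10.11, 10.06 and 9.96 in the E2 oviduct, above all 6 uterine arrays given earlier, by 1.00 in oil mice (SE 0.19, adjusted p = 0.00112) and 0.98 in E2 mice (SE 0.19). Ppp1r15a was at 6.83, 6.70 and 7.11 in the oil uterus, 6.94, 6.85 and 7.14 in the E2 uterus, 7.96, 7.88 and 7.31 in the oil oviduct and 7.91, 7.94 and 7.53 in the E2 oviduct. Its oviduct arrays were the higher ones, by 0.84 in oil mice (SE 0.18, adjusted p = 0.00236) and 0.81 in E2 mice (SE 0.18). All uterine arrays and oil oviduct replicate 3 were under the Sry level, so these differences rest on a dim signal in the uterus. Creld2 was higher by 0.91 in oil mice (SE 0.18, adjusted p = 0.00157) and by 1.82 in E2 mice (SE 0.18, 3.54-fold, adjusted p = 1.18e-05).

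The other genes higher in the oil oviduct were Ern1 (0.60), Herpud1 (0.57), Dnajc3 (0.55), Chac1 (0.49), Syvn1 (0.47), Pdia4 (0.33) and Atf6 (0.28). Herpud1 was 0.35 without oil oviduct replicate 3, and its call ended without oil uterus replicate 1 (0.48, adjusted p = 0.0749) or 2 (0.50, adjusted p = 0.068). Those of Syvn1 and Pdia4 ended without oil uterus replicate 1, oil uterus replicate 2 or oil oviduct replicate 3, and that of Pdia4 also without oil oviduct replicate 2, with adjusted p from 0.0504 to 0.107 and differences from 0.26 to 0.42. Without oil uterus replicate 3 alone, 17 of 35 genes were higher in the oil oviduct, the added ones being Hspa5 (0.58), Hyou1 (0.45), Manf (0.57), Sdf2l1 (0.78), Sel1l (0.24) and Xbp1 (0.26). Without both arrays of oil replicate 3 the count was 15.

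Lower in the oil oviduct were Asns by -1.06 (SE 0.10, 2.08-fold, adjusted p = 4.82e-06), Phgdh by -0.49 (SE 0.08, adjusted p = 0.000366) and P4hb by -0.30 (SE 0.07, adjusted p = 0.00378). P4hb read 10.80, 10.71 and 10.90 in the oil uterus, 10.48, 10.53 and 10.62 in the E2 uterus, 10.46, 10.54 and 10.49 in the oil oviduct and 10.65, 10.67 and 10.74 in the E2 oviduct. The oil uterus was thus high against the oil oviduct for all 3 genes, and the same oil uterus arrays enter the E2 comparison above. In E2 mice none of the 3 was called, with differences of -0.06 for Asns, 0.07 for Phgdh and 0.14 for P4hb.

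In E2 mice all 11 chaperones were higher in the oviduct, with log2 differences unless a fold is given: Creld2, Sdf2l1 (1.48), Hyou1 (2.29-fold), Hspa5 (1.19), Manf (1.15), Dnajb9, Hsp90b1 (0.89), Dnajc3 (0.81), Dnajb11 (0.79), Calr (0.72) and Canx (0.20). Canx lost the call without E2 uterus replicate 2 (0.20, adjusted p = 0.0584) or E2 oviduct replicate 2 (0.18, adjusted p = 0.0692). Of the oxidoreductases 3 were higher too, Pdia6 (1.00), Pdia4 (0.98) and Pdia3 (0.56). So were Atf6 (0.39), Xbp1 (0.46), Herpud1 (0.61), Sel1l (0.29), Derl3, Syvn1 (0.63), Chac1 (0.60), Ppp1r15a and Psat1 (0.95). The Herpud1 call ended without E2 uterus replicate 1 (0.55, adjusted p = 0.0534), and that of Xbp1 without E2 uterus replicate 2 or E2 oviduct replicates 1 or 3 (0.40 to 0.45, adjusted p from 0.0655 to 0.0915). Ern1, higher in the oviduct in oil mice, differed by -0.06 (SE 0.09) in E2 mice. The 8 genes called in neither treatment were Eif2ak3, Edem1, Derl1, Derl2, Atf4, Ddit3, Trib3 and Sesn2.

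**Figure D4:**
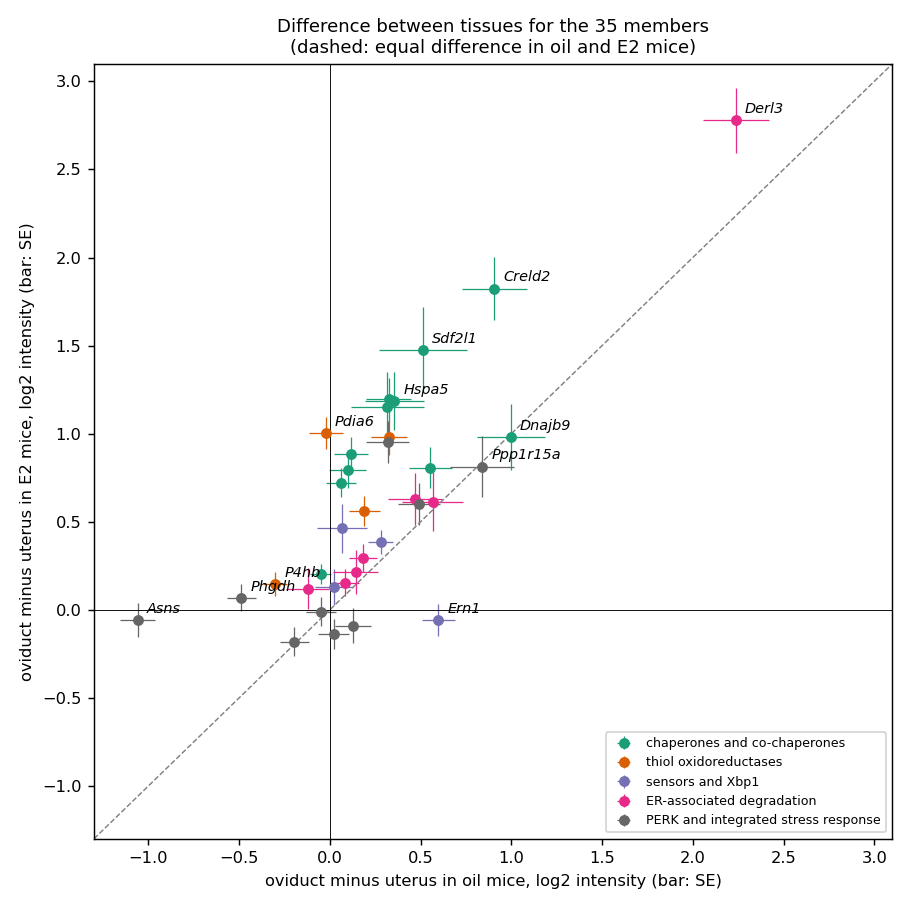
The difference between tissues (oviduct minus uterus, log2 intensity, with SE bars) in oil mice (horizontal axis) and E2 mice (vertical axis) for the 35 genes, coloured by role. Chaperones and oxidoreductases lie above the dashed line of equal difference apart from Dnajb9, which lies at 1.00 in oil mice and 0.98 in E2 mice, and Ern1 lies below the line at 0.60 and -0.06.

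In both treatments the oviduct also differed from the uterus in cell types. Ciliated markers were higher in the oviduct for 14 of 15 genes with oil and with E2, proliferation markers were lower for 11 of 11 with oil and 4 of 11 with E2, and epithelial markers were higher for 12 of 14 with oil, and with E2 higher for 4 and lower for 4 of 14. Adipocyte and mesothelium markers were higher in the oviduct for 10 of 11 in each treatment. Endothelial markers were lower for 11 of 12 with oil and 9 of 12 with E2, stromal markers for 10 of 12 and 9 of 12 (1 higher with E2), and smooth muscle markers for 2 of 12 and 8 of 12. The part of these differences in the values above was not tested.

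The rest of the ER pathway was read from lists of genes outside the 35. The shares of all genes to set beside these lists are 14.3% lower and 12.4% higher in the E2 uterus. Of 34 other ER folding genes 17 fell and 3 rose in the E2 uterus (median -0.22). Fkbp14, a prolyl isomerase that acts on procollagen, fell by 1.40 on the log2 scale (SE 0.13), Uggt2, a glucosyltransferase of glycoprotein quality control, changed by -0.77 and Pdia5 by -0.74. Agr2, a disulfide isomerase of mucus-making epithelia, rose by 0.75 and Sil1, a BiP exchange factor, by 0.49. Of 27 genes of transport between ER and Golgi 14 fell and none rose (median -0.25), among them Kdelr3, which returns chaperones bearing KDEL ends to the ER (-1.16), the cargo receptor Lman1 (-0.53) and the coat gene Sec24d (-0.50). Of 22 genes of translocation and signal peptide removal 7 fell and 1 rose (median -0.17), with Ssr2 at -0.36. The 21 other degradation genes gave 4 higher and 3 lower (median 0.03), near the shares of all genes, with Erlec1 at 0.39, Os9 at 0.24 and Vcp at -0.23. Without both arrays of oil replicate 3 these degradation genes gave 3 higher and 1 lower.

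The 26 other sensors and regulators gave 4 higher and 7 lower (median -0.07). Bcl2l11 (BIM), a death-promoting BCL2 relative, rose by 0.94, Wfs1, an ER calcium regulator, by 0.90 and Crebrf by 0.75. Creb3l1 (OASIS), an ATF6-like factor of collagen-making cells, fell by 0.83 on the log2 scale, and Eif2b3, a subunit of the exchange factor that eIF2α phosphorylation blocks, changed by -0.66. The 34 other ATF4 targets gave 4 higher and 14 lower (median -0.16) and included changes in both directions. Slc7a11, the cystine carrier, rose by 3.16 (SE 0.23), Stc2 by 1.46 and Nupr1 by 1.16, while Mthfd2, of mitochondrial folate metabolism, changed by -1.41 (SE 0.13), Cbs by -0.94 and Aldh18a1, of proline synthesis, by -0.72. Chaperones of the cytosol and mitochondria, which lie outside the ER, gave 22 lower and 2 higher of 37 (median -0.34). Among them were Hspd1 at -0.90, Stip1 at -0.90 and the small heat shock gene Hspb1 at 0.42. These counts include oil uterus replicate 3, on which 32 of the 37 were above both other oil uterus arrays (median displacement 0.20). In the oviduct 1 gene of all these lists was called, Ssr4 of the translocon (0.42, SE 0.06, adjusted p = 0.022), where 0.16% of all genes were called higher and 0.13% lower. The Ssr4 call ended without oil oviduct replicates 1 or 2 or any one E2 oviduct array (0.38 to 0.46, adjusted p from 0.056 to 0.138).

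**Figure D5:**
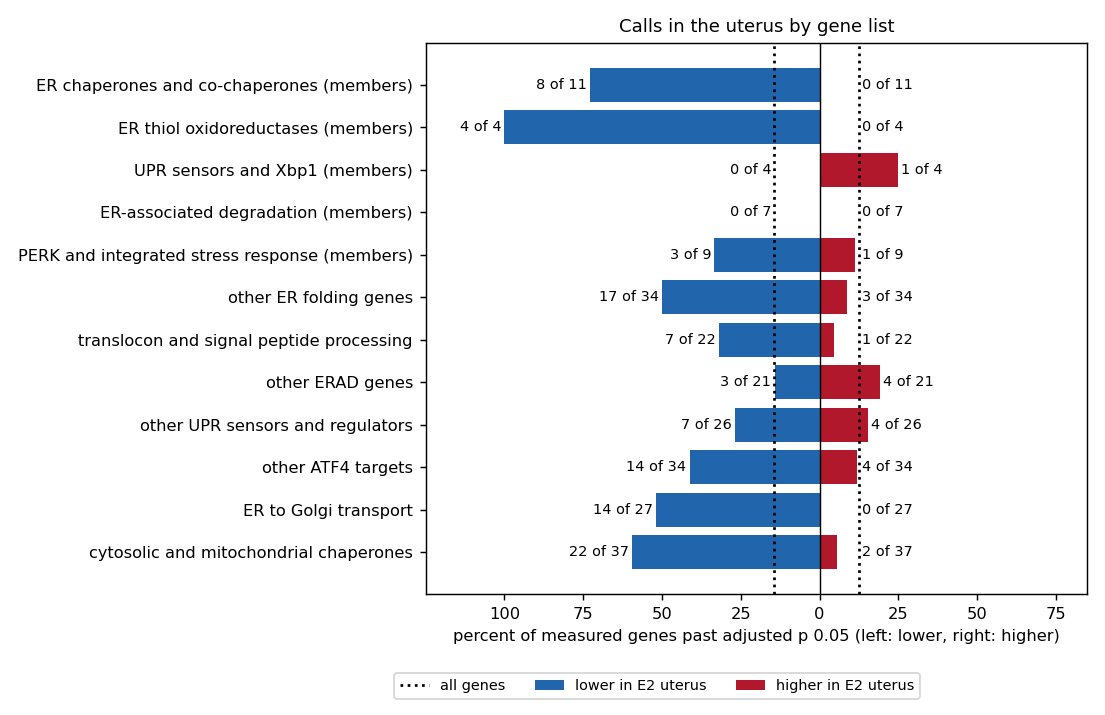
Percent of the measured genes of each list called lower (blue, left) or higher (red, right) in the E2 uterus, with counts at the bars and dotted lines at the share of all genes (14.3% lower, 12.4% higher). Members' chaperones (8 of 11) and oxidoreductases (4 of 4) lie far left of the dotted line. So do other ER folding genes (17 of 34), ER to Golgi transport (14 of 27), other ATF4 targets (14 of 34) and cytosolic and mitochondrial chaperones (22 of 37). The members' PERK and integrated stress response genes (3 of 9), translocon genes (7 of 22) and other sensors and regulators (7 of 26) lie left of it by less. The degradation lists and the members' sensors with Xbp1 (0 of 4) do not.

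Set beside the promoter motifs, 6 of the 9 genes with the ER stress response element were lower in the E2 uterus, against 15 of all 35 and 14.3% of all genes (Hspa5, Hsp90b1, Calr, Canx, Creld2 and Pdia6), and Dnajc3, Derl3 and Syvn1 were not called. These 6 are all chaperones or oxidoreductases, groups in which 8 of 11 and 4 of 4 genes fell. Sdf2l1, Dnajb11, Pdia3, Pdia4 and P4hb fell too, with windows that lack this exact element. The part of role in the count was not tested. Outside the 35 genes, 12 measured genes held the element, of which 4 were lower and 2 higher, with a median of -0.07. Of the 4 genes with the ATF4 core, Asns fell and Herpud1, Trib3 and Chac1 were not called. The 561 measured genes outside the 35 with that core gave 67 higher and 61 lower, with a median of 0.04, where 12.4% of all genes were higher and 14.3% lower.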

How the data were processed

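Total RNA (TRIzol) was biotin-labelled and hybridised to 12 Affymetrix mouse gene arrays, per the labels' protocols. The deposited table holds RMA values, per the submitters' processing notes, which give no version. The deposited values are intensities on a linear scale for 35556 probe sets, and log2 was taken here with no pseudocount. RMA adjusts background and makes arrays alike in distribution, so changes are relative to all genes.

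Of 23410 probe sets listed in the platform annotation, 21789 name 1 symbol, 1621 several and the other 12146 of the table have none. Symbols were updated through the RefSeq gene table (21698 matched). The probe set with the highest mean stood for a gene, which gave 19938 genes, 999 of them with several probe sets. Dnajc3 has 2 probe sets with identical values, and the other Pdia4 set disagreed with the one used.

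limma 3.58.1 (R 4.3.3) fitted 4 group means on all 12 arrays with eBayes and no intensity filter. Benjamini-Hochberg adjustment ran over all genes, at a threshold of 0.05, and the fit was tested on simulated data. Samples were grouped by title. Genes named with the value on every array were a core set, those past the test in the uterus (8 lower, 6 higher at most), and, for the interaction and the tissues in oil mice, at most 4 per direction. Up to 3 of each direction were taken from the other lists, passing over those whose call ended when 1 array was left out. The members and lists were chosen with earlier results of these data known. Scan dates and other doses were not analysed here.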

Additional observations from a re-analysis of the deposited data

Results flagged for a closer look

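The E2 effect differed between the tissues by limma's interaction term (oviduct effect minus uterine effect, log2 scale, adjusted p under 0.05) for 13 of the 35 genes. The difference was positive for Hspa5 0.83, Hsp90b1 0.77, Calr 0.66, Hyou1 0.87, Dnajb11 0.69, Creld2 0.92, Pdia4 0.65, Pdia6 1.02, P4hb 0.45, Asns 1.00, Psat1 0.64 and Phgdh 0.56, and negative for Ern1 at -0.66. The positive genes fell in the uterus and were not called in the oviduct, and Ern1 rose in the uterus and was not called in the oviduct.

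Over the other lists of the ER and stress pathways the term was positive for 34 and negative for 7 of 164 genes, and it was positive for 3 of 37 chaperones of the cytosol and mitochondria. Of all genes 5.77% were called positive and 5.71% negative, so the last count lies near the share of all genes. Of 27 genes named from these lists it passed for 19, but all of these except Ssr4 were picked for their uterine change, which shares arrays with the term. It was positive for Fkbp14 1.19, Uggt2 0.65, Pdia5 0.91, Ssr2 0.39, Ssr4 0.43, Creb3l1 0.93, Eif2b3 0.45, Mthfd2 1.61, Cbs 1.35, Aldh18a1 0.96, Kdelr3 0.82, Lman1 0.53 and Sec24d 0.40, of which Ssr4 was called in the oviduct and not in the uterus. Negative values were found for Bcl2l11 -0.82, Wfs1 -0.76, Crebrf -0.78, Slc7a11 -2.74, Stc2 -0.95 and Nupr1 -1.21, all of which rose in the uterus. The calls of Hspa5, Creld2 and Psat1 ended when some single arrays were left out, as given above. Groups of 3 arrays are too small for a test of single outlying arrays.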

How the results depend on the processing

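With single arrays left out, the count of lower genes in the E2 uterus ran from 14 to 17 (15 with all arrays) and of higher genes from 1 to 3 (2). Interaction counts ran from 9 to 14 positive (12) and stayed at 1 negative. In oil mice 8 to 17 genes were higher in the oviduct (11), in E2 mice 21 to 23 (23), and 0 were called in the oviduct by E2. Higher uterine counts were 1 in a fit of the 2 uterine groups alone, 1 with the replicate block as a fixed term, 4 with array weights and 4 without both arrays of oil replicate 3. A test against a fold of 1.2 left 9 lower and 1 higher gene in the uterus, 3 positive and 0 negative interactions, and 5 genes higher in the oil oviduct. In the oviduct, array weights gave 2 higher genes (Derl3 and Chac1) and the fit without both arrays of oil replicate 3 gave 1. Array weights called 1 gene lower in the oviduct of E2 mice.

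Correlations of same-numbered deviations between groups ran from -0.22 to 0.26, with pairs of an oil and an E2 mouse among them. Between uterus and oviduct of 1 treatment they were 0.005, 0.05 and 0.26 with oil and 0.26, 0.03 and 0.03 with E2. Pairs with different numbers ran from -0.21 to 0.26 with oil and from -0.28 to 0.24 with E2. Whether same-numbered arrays came from 1 mouse was not tested. The fixed replicate block kept 66 of the 67 calls on the 35 genes, losing Ddit3 in the uterus, and the random block kept 67. No value of a called gene changed sign under any alternative run. The interaction could not be fitted on 2 groups alone. Ddit3, Trib3, Chac1, Sesn2 and Phgdh stayed under the Sry level on every array, so their changes rest on dim signal. With 3 arrays a group, a missed threshold does not show equal levels.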

Other observations

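Markers listed for 2 secretory cell populations behaved differently in the E2 uterus. Of 8 markers of oviduct secretory cells 6 rose and none fell, and their summed linear intensity went from 2620 to 2902 in the oil uterus to 10418 to 11934 in the E2 uterus, next to 5790 to 6255 in the oil oviduct. Lcn2, which encodes a secreted siderophore-binding protein, carried much of this sum, at 132 to 235 in the oil uterus and 5278 to 6262 in the E2 uterus, and without it the sum went from 2484 to 2751 to 5140 to 5671. In oil mice 7 of the 8 were higher in the oviduct than in the uterus. In E2 mice 1 was higher and 5 were lower there, and the E2 oviduct sum was 7335 to 8067. The list is thus not particular to the oviduct in these data, and it shares Krt7 with the epithelial list. Of 11 endometrial gland markers 2 rose and 4 fell, with a median of -0.44 and summed intensities of 3144 to 3617 and 3978 to 4428. Without Sprr2f, the gland marker with the largest change in intensity, the sums were 2696 to 3410 and 2105 to 2336. The relation of either list to the folding genes was not tested.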
